A study of Rattus norvegicus with 8 samples.

Results

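Top2a (ENSRNOG00000053047), Cenpf (ENSRNOG00000003388) and Cdkn1a (ENSRNOG00000000521) are 3 cell cycle genes of the 32623 in the count table. They were chosen by name, from earlier results in which these genes had changed after nerve injury, so their own levels and changes are a description. Where a fit across all genes called one of them, the call stands beside the share or number of all genes called, and nothing is read from it. For fits without 1 rat, the range of those numbers is given at the end. All 3 were among the 16988 genes that passed the filter on low counts. Poly(A) RNA was sequenced from dorsal root ganglia (DRG), which hold the cell bodies of sensory neurons with their glia, vessels and immune cells. There were 8 libraries in 4 groups of 2 Sprague-Dawley rats: naïve males, males after chronic constriction injury (CCI) of the sciatic nerve, naïve females, and females after CCI. Naïve rats had no surgery, so an effect of the operation itself cannot be told apart from that of the nerve injury. Each library held the pooled ipsilateral L4, L5 and L6 ganglia of 1 adult rat, taken on day 14 after CCI in the injured groups, and total counts ranged from 39489103 to 60818457.

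Top2a encodes DNA topoisomerase II alpha, which untangles replicated chromosomes and is made in dividing cells, mainly from S phase to mitosis. Cenpf encodes a large kinetochore and nuclear matrix protein that accumulates in G2 and is degraded after mitosis. Cdkn1a encodes p21, an inhibitor of cyclin-dependent kinases that stops the cycle downstream of p53 and that injured neurons, which do not divide, can also express. In an adult ganglion the cells able to divide are mainly satellite glia, Schwann cells, fibroblasts, endothelium and immune cells. In bulk RNA, fewer cells of a type and less RNA per cell cannot be told apart.

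The promoters of the 3 genes are shown because those of Top2a and Cenpf carry the CCAAT and CHR elements widely found at genes expressed in G2 and mitosis, and that of Cdkn1a does not. The sequences are RefSeq's on build GRCr8, from 250 bases before to 25 bases after the annotated start, read along the gene's strand. Top2a lies at chr10:84473069-84473343 on the minus strand, Cenpf at chr13:103760862-103761136 on the minus strand, and Cdkn1a at chr20:7150682-7150956 on the plus strand. Capitals mark matches, on either strand, to the CCAAT box (CCAAT), the CHR element (TTTGAA), the GC box (GGGCGG) or the p53 half-site.
Top2a: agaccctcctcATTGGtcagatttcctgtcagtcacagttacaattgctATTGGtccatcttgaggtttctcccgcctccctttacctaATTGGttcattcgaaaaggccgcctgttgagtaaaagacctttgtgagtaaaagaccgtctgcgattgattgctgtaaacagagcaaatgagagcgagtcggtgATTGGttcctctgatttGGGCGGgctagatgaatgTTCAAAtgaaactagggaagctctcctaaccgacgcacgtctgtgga
Cenpf: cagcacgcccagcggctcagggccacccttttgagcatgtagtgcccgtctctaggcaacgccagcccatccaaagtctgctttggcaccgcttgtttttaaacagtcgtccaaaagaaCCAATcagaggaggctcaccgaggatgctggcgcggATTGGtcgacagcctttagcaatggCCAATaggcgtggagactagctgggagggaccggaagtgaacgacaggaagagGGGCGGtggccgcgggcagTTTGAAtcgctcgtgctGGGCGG
Cdkn1a: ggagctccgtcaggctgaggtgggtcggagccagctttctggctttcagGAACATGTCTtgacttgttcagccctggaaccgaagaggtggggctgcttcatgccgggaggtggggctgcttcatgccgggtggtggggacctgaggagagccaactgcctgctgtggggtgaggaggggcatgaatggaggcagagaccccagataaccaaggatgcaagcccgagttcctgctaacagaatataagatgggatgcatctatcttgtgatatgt

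The Top2a promoter held 4 CCAAT boxes, all on the strand opposite to the gene, 1 GC box and 1 CHR element that began 22 bases before the start. The Cenpf promoter held 3 CCAAT boxes, 2 GC boxes and a CHR element that began 3 bases after the start. Matches were counted in windows that ran 25 bases farther than those printed, where the 3 genes had none. Of 33469 RefSeq rat promoters of that length, 37.5% held a CCAAT box, 18.3% a CHR element and 33.1% a GC box. At least 4 CCAAT boxes were found in 0.675% of promoters and at least 3 in 3.02%. None of the 3 windows matched the E2F site (TTTNGCGC), which 1.28% of promoters held. The Cdkn1a window had no match to these motifs and 1 p53 half-site 201 bases before the start used. Its lack of matches holds for this window only. That half-site was searched for after the sequences had been seen, and 7.98% of all promoters held one. A match in these windows is a description of the letters and not of a factor bound there.

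**Figure D1:**
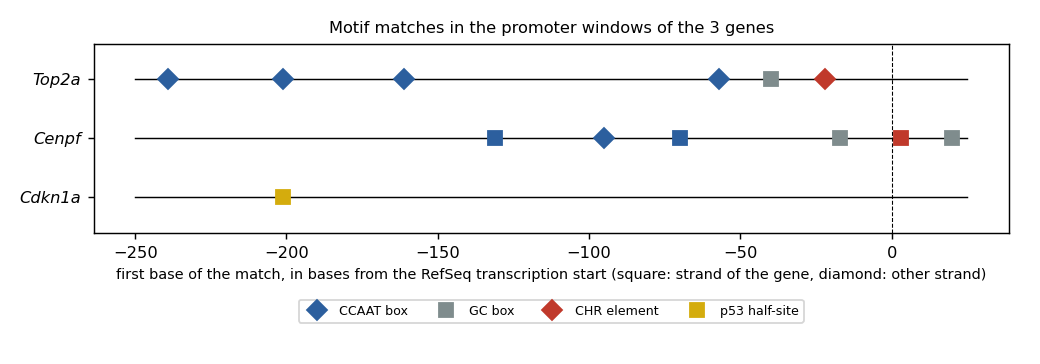
Motif matches along the promoters of Top2a, Cenpf and Cdkn1a. The x axis is the first base of each match in bases from the RefSeq transcription start (dashed line), squares are matches on the gene's strand and diamonds on the other. Top2a and Cenpf show CCAAT boxes, a GC box and a CHR element near the start, while Cdkn1a shows 1 p53 half-site.

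Expression was read as CPM, the counts scaled to library size after TMM normalization, with ± giving the SD of the 2 rats. Intervals around a single rat are exact 95% Poisson intervals and cover counting error only. Top2a was high in naïve males, at 13.1 and 12.1 CPM, and lower in males after CCI, at 9.03 and 8.21. In females the order was turned around. Naïve females had 7.38 and 6.88 CPM, and females after CCI had 11.6 and 12.5. Neither sex had overlap between its naïve and CCI rats.

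Cenpf showed the same arrangement of groups. Naïve males had 6.21 and 6.07 CPM and CCI males 3.73 and 4.39. Naïve females had 3.002 and 3.29 CPM and CCI females 6.18 and 5.63. With no overlap, both genes were lower after CCI in males, as were 36.6% of all genes tested, and higher after CCI in females, as were 30.5%. Its counts were between 139 and 331 per library, fewer than the 291 to 687 of Top2a, and a rat's value was therefore less precise.

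Cdkn1a differed in that 1 group alone stood apart. Males had 6.83 and 7.54 CPM when naïve and 6.75 and 7.55 after CCI. Naïve females had 6.11 and 7.09 CPM. The 2 CCI females had 11.5 and 15.8 CPM. Both were above all 6 other rats, and they also differed from each other, since their counting intervals of 10.4 to 12.6 and 14.6 to 17.1 CPM did not meet. The SD of Cdkn1a was 3.07 CPM in CCI females and at most 0.695 in the other groups.

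**Figure D2:**
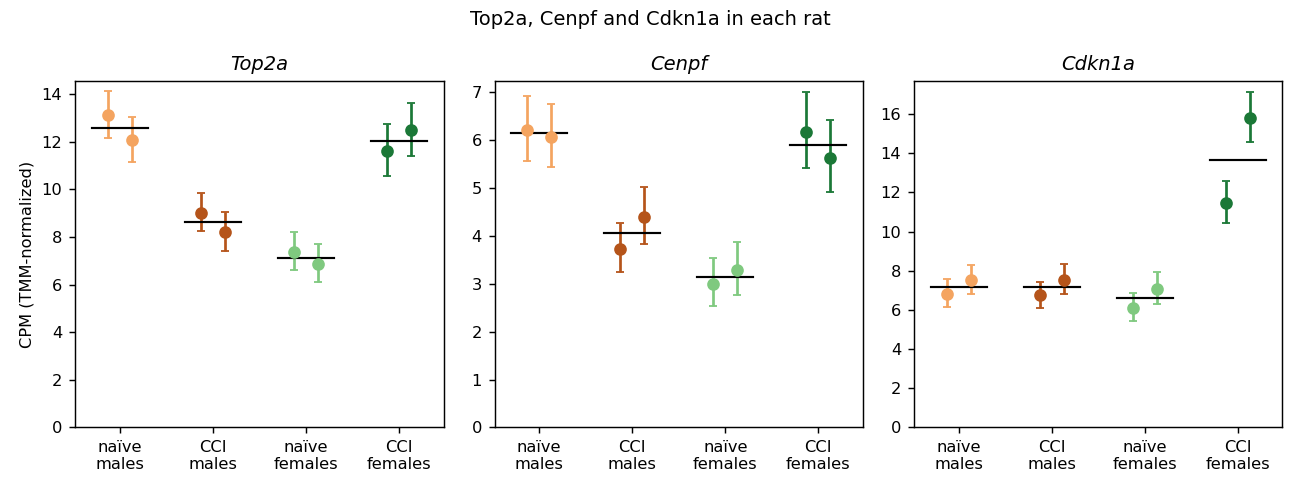
Level of Top2a, Cenpf and Cdkn1a in each rat, in CPM on a linear axis from 0, by group. Points are rats with exact 95% Poisson intervals and lines are means of 2 rats. Naïve males and CCI females are the high groups for Top2a and Cenpf, and CCI females alone for Cdkn1a.

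Ordered by mean, Top2a ran from naïve males (12.6 ± 0.754 CPM) through CCI females (12.1 ± 0.605) and CCI males (8.62 ± 0.578) to naïve females (7.13 ± 0.352). The first pair overlapped and did not differ beyond its spread, while each later step was larger than the SDs of the groups it joined. The order for Cenpf was naïve males (6.14 ± 0.101), CCI females (5.90 ± 0.387), CCI males (4.06 ± 0.467) and naïve females (3.14 ± 0.201), again with overlap only in the first pair. For Cdkn1a, CCI females (13.6 ± 3.07) stood first and did not overlap with the next group. Naïve males (7.18 ± 0.504), CCI males (7.15 ± 0.567) and naïve females (6.60 ± 0.695) followed, with overlap at each step among them. The naïve sexes thus lay farther apart for Top2a and Cenpf than the sexes after CCI, in opposite directions.

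In males, Top2a was lower after CCI by a log2FC of −0.54 (SE 0.101) and Cenpf by −0.59 (SE 0.145), while Cdkn1a had a log2FC of −0.003 (SE 0.131). A call required an adjusted p under 0.05 in edgeR's quasi-likelihood test and an absolute log2FC above 0.5. Top2a and Cenpf, 2 of 3, were called lower, as were 12.5% of all genes tested, and both lay close to the log2FC threshold. Without naïve male 1, CCI male 1 or CCI male 2 neither gene was called, and without naïve male 2 only Top2a was. The log2FC stayed between −0.61 and −0.48 for Top2a and between −0.72 and −0.47 for Cenpf.

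In females, the log2FC after CCI was 0.75 (SE 0.124) for Top2a, 0.90 (SE 0.175) for Cenpf and 1.04 (SE 0.176) for Cdkn1a, which is 1.68-fold, 1.87-fold and 2.05-fold. All 3 were called higher, beside 3.69% of the genes tested. Without CCI female 1, only Cdkn1a was called, with a log2FC of 1.26. Without CCI female 2, none of the 3 was called, and the log2FC of Cdkn1a was 0.80. The CCI female with the higher Cdkn1a also had the higher Top2a but the lower Cenpf.

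Between the naïve sexes, the log2FC of females against males was −0.82 (SE 0.118) for Top2a, −0.96 (SE 0.155) for Cenpf and −0.12 (SE 0.150) for Cdkn1a. None was called, beside 0.0706% of all genes. DESeq2 called Top2a and Cenpf lower in naïve females, among 1014 genes called in either direction. A fit of all 8 libraries also did so, among 906. After CCI the same differences were 0.49 (SE 0.110), 0.54 (SE 0.163) and 0.94 (SE 0.176), and again none was called, beside 1.06% of all genes. DESeq2 called Cdkn1a there among 389 genes, and the fit with no filter did so among 284. Without CCI male 1 or CCI male 2, the log2FC of Cdkn1a was 0.85 or 1.03. With no overlap, Top2a and Cenpf were lower in naïve females, as were 30.5% of genes, and all 3 were higher in CCI females than in CCI males, as were 24.7%. These comparisons reuse the libraries of those within each sex, so they are the same values seen from the other side.

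The change after CCI in females minus that in males was 1.30 (SE 0.155) for Top2a, 1.505 (SE 0.212) for Cenpf and 1.05 (SE 0.245) for Cdkn1a on the log2 scale. This interaction, called at an adjusted p under 0.05 alone, was called for Top2a and Cenpf and not for Cdkn1a, beside 1.59% of all genes. Since such changes are what the genes were chosen for, these calls are no independent evidence. Both calls held without naïve male 2 or naïve female 2, and neither held when any other library was left out. DESeq2 and the fit with no filter called Cdkn1a as well, among 1594 and 1032 genes called. Only 4 genes, or 0.0235% of those tested, were called lower in males and higher in females. They were Top2a, Cenpf, Cyp2s1, a cytochrome P450 (log2FC −0.81 in males and 1.04 in females), and Adamts4, a protease of the extracellular matrix (−0.76 and 0.60). Cyp2s1 and Adamts4 are named because the count is small, after their values were seen. That number was 4 with DESeq2 and 0 without CCI male 1, CCI male 2 or CCI female 1, 1 without CCI female 2 and 2 without naïve male 1. With 581 genes, 3.42% of those tested, no overlap between naïve and CCI rats was seen in either sex with lower values in males and higher values in females.

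Top2a and Cenpf moved together from group to group. Within CCI males, naïve females and CCI females, the rat with the higher Top2a had the lower Cenpf. In naïve males the same rat had the higher value of both. There were between 40.7 and 53.5 Cenpf counts for every 100 of Top2a in the 8 libraries, while the level of each varied over a wider range. Over the 8 libraries, Pearson's r of log2 CPM was 0.94 and Spearman's rho 0.86 for Top2a with Cenpf. For Cdkn1a these were 0.53 and 0.36 with Top2a, and 0.54 and 0.48 with Cenpf. The points share 4 group means, so these values mostly restate the order of the groups. The number of Cdkn1a counts for every 100 of Top2a ran from 52.0 and 62.5 in naïve males to 98.7 and 126.6 in CCI females.

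A list of 59 genes of G2 and mitosis places the 2 proliferation genes among others. An identifier was paired with a symbol only in the study's own gene tables, for 11.5% of the genes tested, and those tables hold genes that the study had called in these libraries. The list therefore reached 14 genes besides Top2a and Cenpf, picked in part for their own change, and is not independent evidence of a direction. For this reason its counts are given beside shares of the 1957 other genes with a symbol.

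In males, 7 of the 14 were called lower after CCI and none was called higher. Genes with a symbol were called lower in 40.8% of cases. Among the 7, the largest falls were of Kif18b, a kinesin of the mitotic spindle (log2FC −1.22, adjusted p = 0.0117 in edgeR's quasi-likelihood test), Pkmyt1, a kinase that holds back entry into mitosis (−1.14, adjusted p = 0.0247), and Plk1, a kinase that drives mitosis (−0.89, adjusted p = 0.0356). Bub1b of the spindle checkpoint (−0.86), Foxm1, a transcription factor of mitotic genes (−0.79), Kif20a of cytokinesis (−0.62) and Kif15 (−0.62) also fell. Values were higher after CCI for 2 of the 14. Cit had a log2FC of 0.37 (adjusted p = 0.0326 in the same test), short of the threshold, and Kif22 had 0.25 (adjusted p = 0.148). The median log2FC of the 14 was −0.52, compared with −0.31 for other genes with a symbol and −0.01 for all genes. No gene of the 14 was called without naïve male 1, CCI male 1 or CCI male 2, and 4 were called without naïve male 2.

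For Plk1, the levels in males were 2.75 and 2.13 CPM when naïve and 1.199 and 1.42 after CCI, and those in females were 1.205 and 0.922 when naïve and 1.47 and 1.46 after CCI. For Foxm1, males had 6.77 and 6.47 CPM when naïve and 4.32 and 3.30 after CCI, and females had 3.36 and 3.38 when naïve and 3.88 and 3.68 after CCI. For both genes naïve males stood above all other rats, and CCI females were well below them, unlike for Top2a and Cenpf.

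In females, 3 of the 14 were called higher and none was called lower, beside 5.11% of other genes with a symbol called higher. They were Kif22, a chromosome-moving kinesin (log2FC 0.96, adjusted p = 0.00749 in edgeR's quasi-likelihood test), Prc1, which bundles microtubules of the central spindle (0.72, adjusted p = 0.0175), and Tpx2, a spindle assembly factor (0.66, adjusted p = 0.0261). The median of the 14 was 0.41, compared with −0.09 for other genes with a symbol. Neither Kif22, Prc1 nor Tpx2 was called without CCI female 1 or CCI female 2.

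For Prc1, males had 10.4 and 10.5 CPM when naïve and 9.85 and 8.29 after CCI, and females had 6.49 and 6.15 when naïve and 10.8 and 10.2 after CCI. For Tpx2, males had 9.43 and 8.45 CPM when naïve and 7.04 and 8.07 after CCI, and females had 5.75 and 5.72 when naïve and 9.30 and 8.93 after CCI. In both genes CCI females reached the level of naïve males, as they did for Top2a and Cenpf. Kif22 differed, since its values after CCI were the highest in both sexes.

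Between the naïve sexes, 13 of the 14 had lower values in females, without overlap in each case, as had 51.9% of other genes with a symbol and 30.5% of all genes, and the median was −0.74 compared with −0.20 for other genes with a symbol. None passed edgeR's quasi-likelihood test, in which the lowest adjusted p was 0.0954, and 12 of 14 had an unadjusted p under 0.05, beside 78.2% of other genes with a symbol and 25.6% of all genes. DESeq2 called 8 lower, beside 28.4% of other genes with a symbol, and the fit of all 8 libraries called 9 lower, beside 25.9%. After CCI none was called between the sexes by edgeR or DESeq2, and the median was 0.14. In edgeR's test 3 had an unadjusted p under 0.05, beside 43.9% of other genes with a symbol and 18.3% of all genes. Of these, Kif22 (log2FC 0.44) and Bub1b (0.64) were higher in CCI females and Cit (−0.45) was lower.

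The interaction was called for 1 of the 14, beside 7.46% of other genes with a symbol called in that direction. It was Prc1 (0.93, adjusted p = 0.0483 in edgeR's quasi-likelihood test), and Tpx2 was next (0.91, adjusted p = 0.0515). Prc1 was not called when any 1 of the 8 libraries was left out. The median was 0.92, compared with 0.41 for other genes with a symbol. Lower values in CCI males and higher values in CCI females, with no overlap in either sex, were seen in 10 of the 14 (Aspm, Bub1b, Ccna2, Foxm1, Kif18b, Kif20a, Ndc80, Plk1, Prc1 and Tpx2), and in 8.33% of other genes with a symbol. Cit, a kinase of cytokinesis that neurons also express, was the 1 gene with a negative interaction (−0.50, adjusted p = 0.0902).

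**Figure D3:**
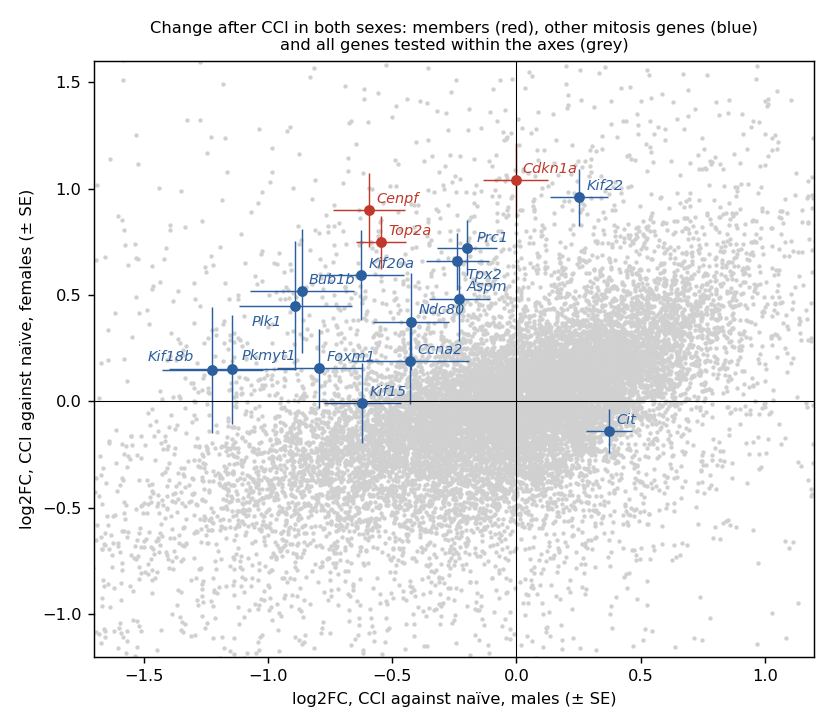
Change after CCI in males (x axis) and females (y axis) as log2FC ± SE, for Top2a, Cenpf and Cdkn1a (red), the 14 other mitosis genes (blue) and all genes tested that lie within the axes (grey). Top2a and Cenpf lie in the upper left, with lower values in males and higher values in females, and Cdkn1a lies on the vertical line at 0.

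**Figure D4:**
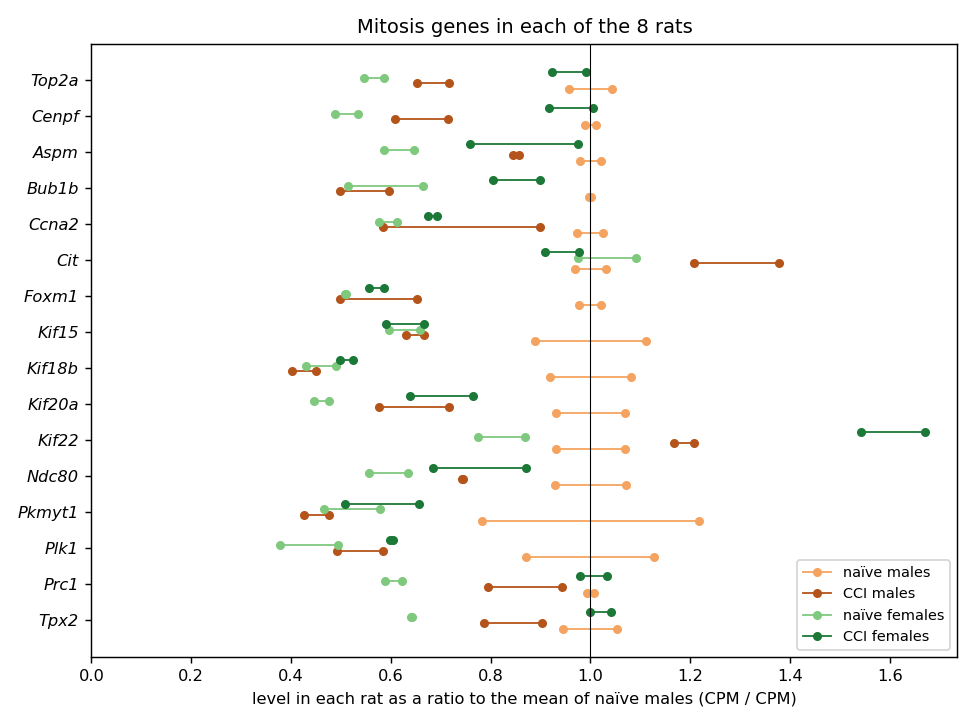
Level of Top2a, Cenpf and the 14 other mitosis genes in each rat, as a ratio of its CPM to the mean CPM of naïve males, on a linear axis. Each line joins the 2 rats of a group. Naïve females lie to the left of naïve males for every gene but Cit, and CCI females lie near naïve males for Top2a, Cenpf, Prc1 and Tpx2.

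Among genes of DNA replication and repair, Pold1, a DNA polymerase subunit, fell in males (log2FC −0.62, adjusted p = 0.0149), as did Rad54l of recombination repair (−1.03, adjusted p = 0.0251). In females neither passed, with log2FC of −0.04 for Pold1 (adjusted p = 0.894) and −0.43 for Rad54l (adjusted p = 0.461). Neither was called between sexes or for the interaction. In males, neither was called without naïve male 1, CCI male 1 or CCI male 2, and without naïve male 2 only Pold1 was.

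Of 18 genes that start or hold the cycle in G1, 3 besides Cdkn1a had an identifier, and all 3 fell in males, where 40.8% of other genes with a symbol were called lower. Cdk2, the kinase of S phase entry and a target of p21, had a log2FC of −1.48 (adjusted p = 0.00565). Cdk6 had −0.97 (adjusted p = 0.00684) and its partner cyclin D1, Ccnd1, had −0.85 (adjusted p = 0.00565). In females none passed, with log2FC of −0.76 for Cdk2 (adjusted p = 0.0711), −0.43 for Cdk6 (adjusted p = 0.109) and −0.12 for Ccnd1 (adjusted p = 0.628). Levels of Cdk2 in males were 13.9 and 12.5 CPM when naïve and 4.76 and 4.62 after CCI, and in females 5.86 and 8.06 when naïve and 4.73 and 3.50 after CCI. All 4 injured rats thus lay below all 4 naïve rats for Cdk2, whereas for Cdkn1a only the injured females stood apart.

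Among 29 genes known as targets of p53, 2 besides Cdkn1a had an identifier, again only through the study's tables of genes it had called. In females 5.11% of other genes with a symbol were called higher, and in males 1537 of the 16988 genes tested were. Gadd45a, which responds to DNA damage and stress, rose in both sexes, by a log2FC of 1.05 in males (adjusted p = 0.00565) and 1.22 in females (adjusted p = 0.000296). Its levels in males were 33.0 and 29.8 CPM when naïve and 65.9 and 64.0 after CCI, and in females 36.7 and 35.5 when naïve and 83.6 and 85.5 after CCI. Its interaction was 0.18 (adjusted p = 0.323), whereas the values of Cdkn1a overlapped between naïve and CCI males. Xpc, a DNA repair gene, was not called in either sex (−0.49 and 0.10). Its adjusted p in males was 0.0180, with a log2FC short of the threshold. The p-values of these lists are from edgeR's quasi-likelihood test, adjusted over all genes tested. Without CCI male 1 no gene of the whole table was called in males, and the calls of these lists in males were lost with the rest.

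The genes most like each of the 3 were ranked by Pearson's r of log2 CPM over the 8 libraries among the 14104 genes whose average log2 CPM was 0 or more, and the genes named are from the 5 nearest with a symbol. For Top2a they were Wdr81 (r 0.968), Olfml2a (0.953), Ptprz1 (0.952), Numa1 (0.952) and Lmna (0.948). For Cenpf they were Fndc1 (0.965), Lama5 (0.962), Tpx2 (0.961), Mvp (0.959) and Dtx3l (0.949). Only Tpx2 among these belonged to the mitosis list. For Cdkn1a they were Tnfaip6 (0.949), which was also the nearest of all 14104, Kif5a (0.942), Cp (0.916) and Macf1 (0.902). Tnfaip6, an inducible secreted protein, had a mean of 8.69 CPM in CCI females and between 1.56 and 1.91 in the other groups. As 1897 of the 14104 had a symbol, other close genes remain unnamed here.

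The labels and the cells sampled were checked with marker genes. Atf3, a marker of injured neurons, had 67.7 to 133.1 CPM in CCI rats and 11.04 to 12.7 in naïve rats, and its interaction was called (0.78, adjusted p = 0.0412 in edgeR's quasi-likelihood test). The Y-linked gene Eif2s3y had at least 119.9 CPM in males and at most 0.0258 in females. Neuron markers (5 of 10 listed with an identifier) were abundant in all rats. In males they summed to 16255 to 18369 CPM when naïve and 26131 to 26742 after CCI. Of the 5, 4 were called higher, as were 1537 of the 16988 genes tested. These markers too were reached only through the study's gene tables, so all genes tested are not a like background. In females the sums were 19355 to 20486 CPM when naïve and 20168 to 24339 after CCI, and none of the 5 was called. The neuron markers were thus higher in males where Top2a and Cenpf were lower, and the interaction had a negative value for all 5, from −0.61 to −0.37, without passing for any.

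Markers of other cells moved with some of the same groups. The 5 of 7 myelinating Schwann cell markers summed to 9697 to 11845 CPM in naïve males, 2839 to 2965 in CCI males, 6521 to 8149 in naïve females and 3457 to 4572 in CCI females. The sum was mostly myelin basic protein, Mbp, which fell in both sexes (log2FC −2.01 in males, adjusted p = 0.00565, and −1.04 in females, adjusted p = 0.0151, in edgeR's quasi-likelihood test). In males all 5 fell, where 40.8% of other genes with a symbol were called lower. In females Mbp and Ncmap fell while Mag and Egr2 had log2FC of −0.02 and 0.08. Between the naïve sexes all 5 had negative log2FC in females, from −0.76 to −0.34, and none was called. The interaction was positive for all 5, with a median of 0.98, compared with 0.41 for other genes with a symbol. It was called for Mag (1.03) and Prx (1.17), beside 7.46% of other genes with a symbol called in that direction. Without naïve male 1, CCI male 2 or CCI female 2 no gene of the whole table had a called interaction. The 3 of 5 fibroblast markers were lowest in CCI males, at 1111 to 1148 CPM, compared with 1567 to 1917 in the other groups. Fabp7, the 1 of 5 satellite glia markers with an identifier, had 80.2 to 106 CPM in naïve rats, 46.1 to 48.0 in CCI males and 60.5 to 63.5 in CCI females.

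The 6 of 8 red blood cell markers differed within a group, at 84.4 and 849.6 CPM in the 2 naïve males, which had nearly equal Top2a and Cenpf. Naïve females had 926 to 1345, CCI males 128 to 164 and CCI females 110 to 144. The 2 of 10 neutrophil and marrow myeloid markers were highest in naïve females (5.31 to 10.05 CPM), where Top2a and Cenpf were lowest. They also differed between the 2 naïve males, at 0.115 and 3.45 CPM. Cd79b, the 1 lymphocyte marker with an identifier, was highest in naïve females as well (2.72 to 2.75 CPM) and at most 1.36 elsewhere. It had 0.0765 and 1.36 CPM in the 2 naïve males. Cd163, the 1 of 12 macrophage markers with an identifier, had 2.08 to 2.15 CPM in naïve males, 1.54 to 1.90 in CCI males, 3.64 to 5.25 in naïve females and 5.71 to 5.96 in CCI females. No endothelial or muscle marker was paired with an identifier. The part of cell content in the levels of Top2a, Cenpf and Cdkn1a was not tested.

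**Figure D5:**
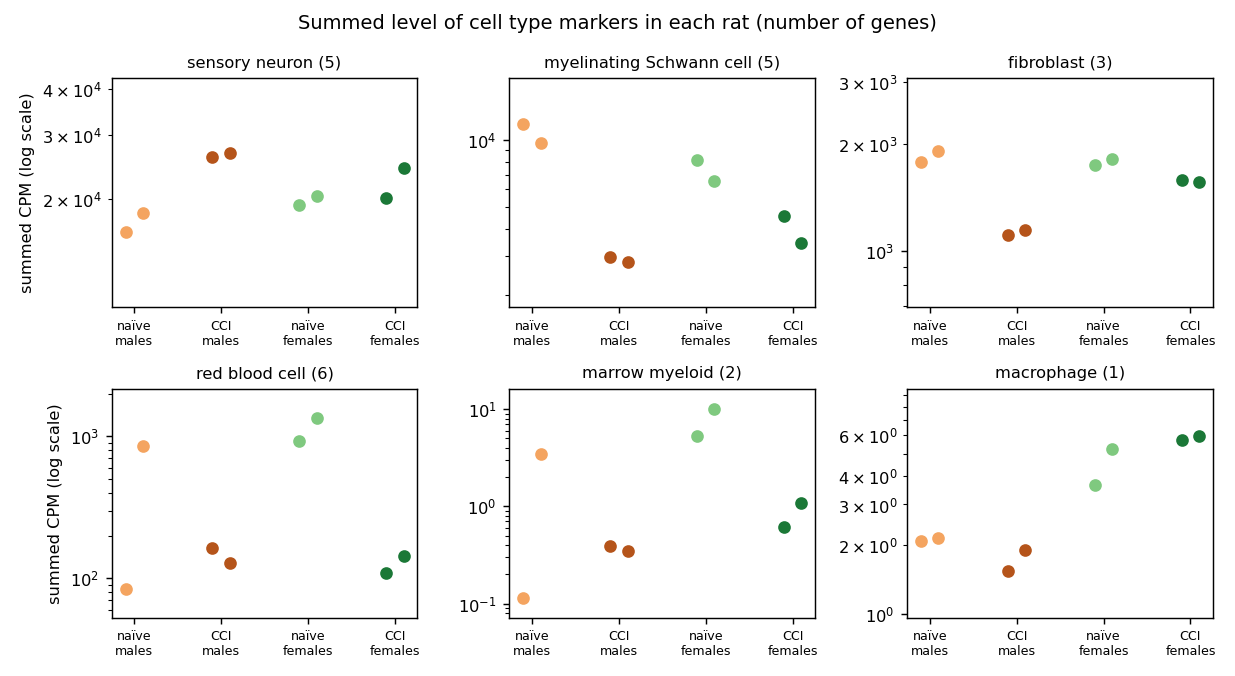
Summed CPM of cell type markers in each rat, on log axes that differ between panels, with the number of genes summed in parentheses. Points are rats. The Schwann cell sum, mostly Mbp, is lower after CCI in both sexes, and the red blood cell and marrow myeloid sums differ widely between the 2 naïve males.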

How the data were processed

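Strand-specific poly(A) libraries of 8 rats were sequenced in 2 batches, and which library was in which batch is not given in the sources used here. The authors aligned reads to rn6 with HISAT2, removed ribosomal RNA reads and counted reads per gene with featureCounts, and the deposited values are these raw counts. All 8 columns were used. The submitters' processing notes also name CASAVA 1.8.2.

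Analyses used R 4.3.3, edgeR 4.0.16 and DESeq2 1.42.0. Genes with low counts were left out by filterByExpr (10 counts at least, 15 in total), and counts were normalized by TMM, with a prior count of 2 for log2 CPM. Each pair of groups was fitted on its 4 libraries, and the interaction of sex and CCI on all 8, using the quasi-likelihood test of edgeR, and p-values were adjusted by Benjamini and Hochberg's method over 16988 genes. SEs were derived from the log2FC and its F statistic. Scripts were tested on simulated data.

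The genes, lists and tests were chosen with earlier results of these data known. The text names the 3 genes, fixed cell cycle regulators with an identifier, the 3 genes per list and direction with the largest called log2FC, and the 5 genes most like each of the 3. Some genes that this rule names are not reported here. Gene symbols were taken from the study's gene tables for 1961 of 32623 genes. Those tables also hold the authors' own fold changes, which were not used. Promoters are from RefSeq (GRCr8), matched by symbol for all 3 genes. Alternatives were DESeq2, its size factors, no filter, a fit of all libraries, a block by replicate number, and leaving out each rat.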

Additional observations from a re-analysis of the deposited data

Results flagged for a closer look

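Top2a and Cenpf moved in opposite directions in the sexes, with both CCI males below both naïve males and both CCI females above both naïve females. The change in females minus that in males was 1.30 for Top2a and 1.505 for Cenpf on the log2 scale, and since the genes were chosen for this pattern, the interaction called for both is no independent evidence of it. The same opposite movement without overlap was seen in 8.33% of other genes with a symbol and 3.42% of all genes tested. Of the cell cycle and p53 lists, it was seen in 10 of the 14 mitosis genes and 1 of the 2 p53 targets. Symbols came from tables of genes the study had called, so these counts are no independent evidence. In these 11 genes the interaction did not pass edgeR's quasi-likelihood test except for Prc1 (0.93). The values of the other 10 were 0.73 for Aspm, 1.40 for Bub1b, 0.63 for Ccna2, 0.96 for Foxm1, 1.38 for Kif18b, 1.23 for Kif20a, 0.81 for Ndc80, 1.36 for Plk1, 0.91 for Tpx2 and 0.61 for Xpc. Atf3, the check of the injury label, rose in both sexes and more in females, with an interaction of 0.78 that passed. The interaction also passed for the Schwann cell markers Mag (1.03) and Prx (1.17), which fell in males and were not called in females. With 2 rats a group, no search for a single outlying rat was made.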

How the results depend on the processing

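The signs of the log2FC of Top2a and Cenpf were kept in every comparison under every alternative run. That of Cdkn1a was kept in all comparisons but CCI against naïve in males, where it lay near 0 and ran from −0.09 to 0.08. With DESeq2, the numbers of genes called were 1014 between naïve sexes (12 in the reported fit), 389 between CCI sexes (180) and 1594 for the interaction (270), and the mitosis genes called were 8 between naïve sexes and 4 for the interaction. With no filter on low counts, 130, 284 and 1032 genes were called in those comparisons, and 3 mitosis genes for the interaction. The fit over all 8 libraries called 906 genes and 9 mitosis genes between naïve sexes.

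Leaving out 1 rat at a time left some groups with a single library, assumed to vary like the others. Genes called then ran from 0 to 3722 in males, from 84 to 1836 in females, from 6 to 327 between naïve sexes, from 32 to 656 between CCI sexes and from 0 to 563 for the interaction. Mitosis genes called ran from 0 to 4 in males, from 0 to 3 in females, from 0 to 1 between CCI sexes, and were 0 throughout for the interaction. Genes called in opposite directions ran from 0 to 6. The log2FC of Cenpf ran from −0.72 to −0.47 in males, from 0.42 to 0.67 between CCI sexes and from 1.39 to 1.63 for the interaction. That of Cdkn1a ran from 0.80 to 1.26 in females, from 0.69 to 1.15 between CCI sexes and from 0.80 to 1.27 for the interaction.

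Replicate numbers are shared by the groups, but no source says that they pair rats, so they were not taken as pairs. The deviations of same-numbered rats from their group means correlated at 0.73 in males, −0.01 in females, 0.13 between naïve sexes and −0.02 between CCI sexes. In males, where it was high, the column names of naïve male 1 and CCI male 1 also share an added letter that no source explains. With the replicate block, 4478 genes were called in males (3663 in the reported fit), 6 between naïve sexes and 68 between CCI sexes. In opposite directions in the sexes, 19 genes were called, Top2a and Cenpf among them. The interaction was called for 314 genes, Cdkn1a among them (1.04). The causes were not tested. Groups of 2 rats, the share of genes with a symbol and, for Cenpf, counts of 139 to 331 limit what can be seen.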
